A study of Drosophila melanogaster with 140 samples.

Results

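The genes described here encode the translation initiation factors (eIF) and elongation factors (eEF) of *Drosophila melanogaster*. They are all genes of the deposited count table whose symbol starts with eIF or eEF and that reached 1 CPM (a library's counts scaled to a common total) in at least 1 library, 51 of 17562 genes. All 51 candidate symbols reached that minimum, so none was dropped, and the choice used no comparison between groups. By role they comprise 8 elongation factors, 13 cap-binding complex and helicase factors (eIF4), 16 eIF3 subunits, 4 genes of eIF2 and its relatives, 5 subunits of eIF2B, and 5 scanning, joining and release factors (eIF1, eIF1A, eIF5, eIF5B and eIF6).

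Initiation factors bring the ribosome to an mRNA and set it at the start codon. The eIF4 group binds the 5′ cap and unwinds the RNA, eIF3 holds the small subunit, eIF2 carries the initiator tRNA and is recharged with GTP by eIF2B, and eIF5B joins the large subunit. Elongation factors then deliver each charged tRNA (eEF1) and move the ribosome along (eEF2). N6-methyladenosine (m6A) is a methyl mark on mRNA written by a complex whose catalytic subunit is Mettl3, and the translation machinery is one of the routes through which m6A is known to act.

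The study asked how m6A and its loss act on the aging fly brain, in neurons and in glia, and in a fly model of amyloid toxicity. All flies were males. In the first experiment daGal4, which drives expression throughout the body, expressed Mettl3 RNAi or, as the control, mCherry RNAi, and heads were taken at 34 d and at 5 d. Poly(A) RNA was fragmented, and m6A-bearing fragments pulled down with an antibody (m6A-IP) were sequenced beside the input, in 3 replicates a group. In the second experiment the neuronal driver elavC155-Gal4 expressed the human Aβ42 peptide, from a transgene labelled UAS-AB(2x), or, as the control, membrane-bound GFP (mCD8-GFP) to 6 d, with 2 Aβ42 and 3 mCD8-GFP pairs of m6A-IP and input from heads, and 3 and 3 libraries of brain RNA.

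In the third experiment, brain cells were sorted on GFP after mCD8-GFP was driven by elav-Gal4 (neurons) or repo-Gal4 (glia), together with Mettl3 RNAi or mCherry RNAi, at 34 d and 5 d. The elav sort kept GFP+ cells and the repo sort kept GFP+ and GFP- cells, with 3 or 4 libraries a group. In the fourth experiment FLAG-tagged RpL3 was driven by elav-Gal4 or repo-Gal4 with the same RNAi lines and ages, and ribosome-bound RNA was precipitated from brains (translating ribosome affinity purification, TRAP) and sequenced beside the input. Sorted-cell libraries came from few cells and an amplifying kit, and since library kits and scaling differ between experiments, levels from separate experiments are set side by side without a test. A fragment ratio is given below as log2 of m6A-IP over input, and a TRAP ratio as log2 of TRAP-IP over input, both from scaled CPM. Scaling centres such ratios near 0 over all genes, so a ratio of 0 does not mean that a transcript lacks m6A or ribosomes. In all of these bulk samples, fewer cells of a type and less RNA per cell cannot be told apart.

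The 140 libraries held 2132983 to 36361242 counts, with the smallest totals in TRAP (2132983 to 17891755). The 51 genes took 1.14% to 2.05% of the counts in the libraries of the daGal4 heads, 1.82% to 2.39% in those of the Aβ42 experiment's heads, 1.26% to 1.70% in brains, 0.546% to 0.727% in sorted cells and 0.397% to 1.79% in TRAP. Mettl3 itself, the RNAi target, was at 1.94, 1.84 and 2.22 CPM in Mettl3 RNAi heads at 34 d, against 5.93, 5.97 and 6.31 CPM in control heads. At 5 d it was at 1.85, 3.90 and 3.07 CPM in Mettl3 RNAi heads, against 4.47, 4.16 and 4.45 CPM in control heads, a difference that did not pass the test (adjusted p = 0.468). Markers checked the labels of the cell samples. Glial markers summed to 18200 to 25120 CPM in repoGFP+ cells at 5 d, against 727.7 to 753.8 CPM in repoGFP- cells, but elavGFP+ cells at 5 d also held 5511 to 7197 CPM of them, and the neuronal markers of repoGFP+ cells (3786 to 3895 CPM) were not far below those of repoGFP- cells (4613 to 5947 CPM). Of the 51 genes, 19 share exon bases with another gene, and their values are less certain. The strand setting of the counting is not given in the sources used here. Of the overlaps listed next, those of eIF5, eIF2gamma, eIF4G2 and eIF4EHP lie on the same strand, and no strand setting can separate them. The overlap is 80.8% of the exon length of eIF5 (with CG46312), 16.8% of eIF3h (with senju), 16.0% of eIF2gamma (with Su(var)3-9), 12.6% of eIF2alpha (with rngo), 8.56% of eIF4G2 (with CG33111) and 6.97% of eIF4EHP (with Syx1A), and at most 6.25% of each other gene.

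Levels per kilobase of exon spanned several orders of magnitude. In control heads at 5 d, eEF1alpha1, which delivers charged tRNAs to the ribosome (chromosome arm 2R, 11891135 to 11895762, plus strand, dm6), led with 1101 ± 285 CPM per kb (SD, n = 3). It was followed by eEF5, the fly counterpart of the hypusine-carrying factor eIF5A (806 ± 31.3), by eEF1beta, a nucleotide exchange subunit (566 ± 156), by eEF2, the translocase (487 ± 91.9), and by the RNA helicase eIF4A (428 ± 23.7). Of these neighbours, eEF1beta and eEF2 were closer to each other than their SDs, and eEF2 and eIF4A closer than the SD of eEF2. In mCD8-GFP brains eEF1alpha1 led again (1291 ± 119 CPM per kb), ahead of eEF2 (813 ± 48.9) and eIF4A (543 ± 18.6). At the other end, 8 paralogs (eIF3d2, eIF3f2, eIF3g2, eIF4E3, eIF4E4, eIF4E5, eIF4E7 and eIF4H2) had a median under 0.1 CPM over the 140 libraries. Most of these 8 fell under the minimum count for testing. Of them eIF3d2, eIF4E3, eIF4E7 and eIF4H2 passed it in some comparisons, and eIF5 and eIF4E6 each missed it in 1, so the comparisons below cover 42 to 45 of the 51 genes. Of those 4, only eIF4E3 was called in any comparison, and its 2 calls are described below. In contrast, their main paralogs eIF4E1 (101 ± 12.5) and eIF3g1 (127 ± 13.6 CPM per kb) were abundant in control heads at 5 d.

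The m6A-IP/input ratio separated the genes widely within 1 tissue. In control heads at 5 d, 18 of the 43 genes tested in every comparison of the m6A ratio had a log2 ratio above 0 in all 3 replicates and 22 had one below 0 in all 3. The subunit-joining GTPase eIF5B was highest, at 3.11, 2.92 and 3.19. The eIF2 subunits eIF2alpha (2.63, 2.27 and 2.52) and eIF2beta (2.53, 2.18 and 2.32) followed, then the helicase cofactor eIF4H1 (1.95, 1.98 and 2.58) and the eIF3 scaffold subunit eIF3a (2.06, 1.96 and 2.22). The lowest were the cap-binding paralog eIF4E6 (-0.94, -1.99 and -3.37), which had few reads, the factor eEF5 (-1.86, -1.87 and -2.32) and the subunit eIF3l (-2.01, -1.38 and -1.85). Subunits of 1 complex thus lay at opposite ends, with eIF3 subunits between -1.74 and 2.08 on average. The paralog pair eEF1alpha2 and eEF1alpha1 lay on opposite sides of 0, at 0.76, 0.69 and 0.83 for eEF1alpha2 and at -0.69, -0.74 and -0.72 for eEF1alpha1. The mCD8-GFP heads of the Aβ42 experiment ranked the 43 genes alike (r = 0.92, Spearman's rho = 0.90 over genes, which share their sequence and length between the experiments). Across the same 43 genes the ratio in control heads went only loosely with exon length (r = 0.33, rho = 0.29). With Mettl3 RNAi at 5 d the highest mean ratio of these genes was 3.29, against 3.07 in control heads. At 34 d it was 2.98 with Mettl3 RNAi, against 2.81 in control heads. Mettl3 RNA remained in the RNAi heads, and scaling centres the ratios over all genes. These values therefore cannot tell how much of a high ratio is m6A written by Mettl3.

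**Figure D1:**
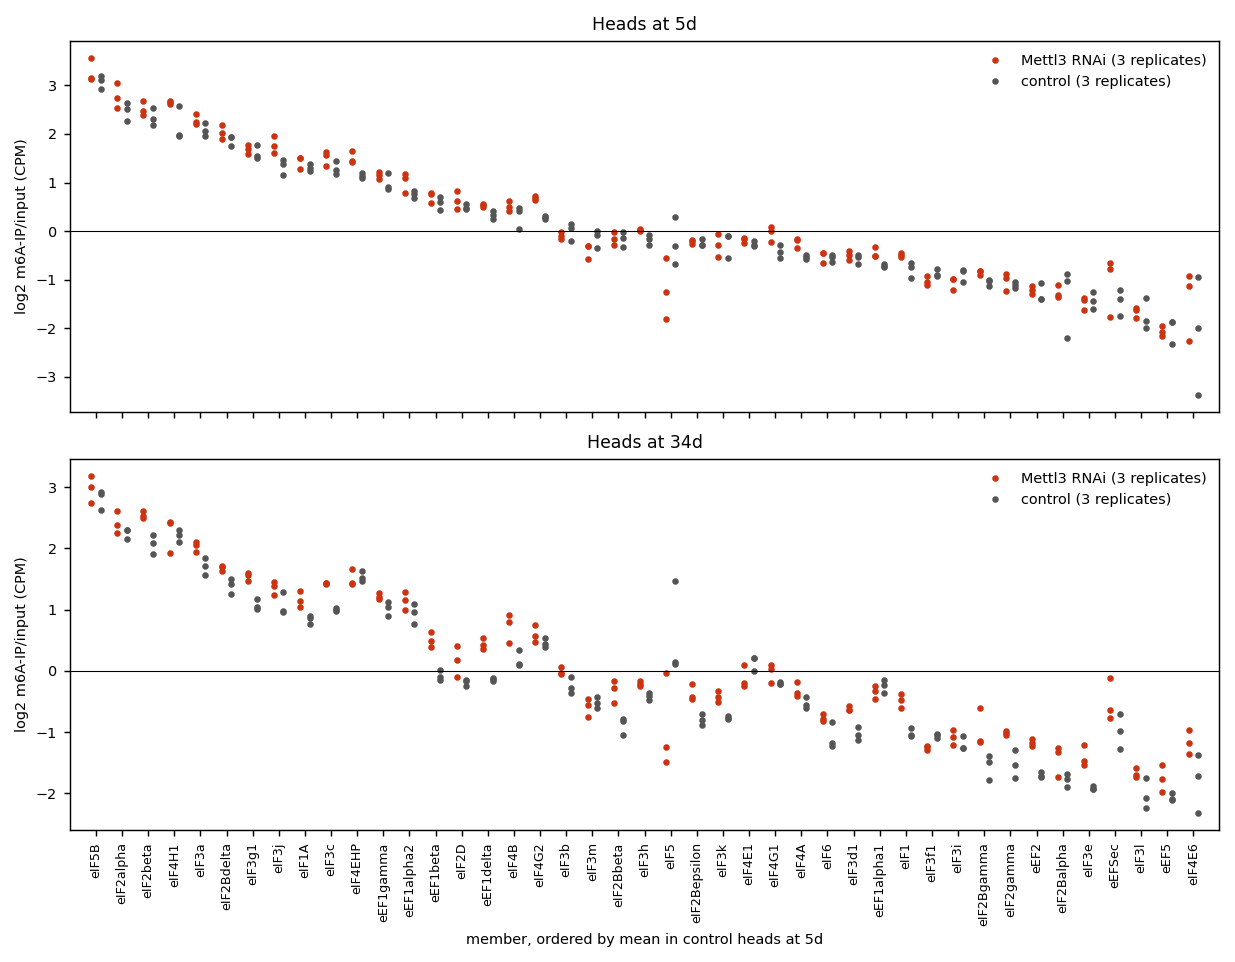
Log2 m6A-IP/input of 43 translation factor genes (x axis, ordered by the mean in control heads at 5 d) in each replicate of Mettl3 RNAi heads (red, n = 3) and control heads (grey, n = 3), at 5 d (upper) and 34 d (lower). The control replicates at 5 d run from eIF5B, at 2.92 to 3.19, down to eEF5 and eIF4E6, and the other panel keeps the same gene order.

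Knockdown of Mettl3 moved most of these ratios upward, and the genes called moved by small amounts. Over all translation factors tested, log2 differences ran from -1.81 to 0.56 at 34 d and from -1.28 to 0.48 at 5 d. The lowest value at each age was that of a gene not called. At 34 d, 12 of 44 genes had a higher ratio in Mettl3 RNAi heads and 2 a lower one, while 12.6% of all genes tested were higher and 19.7% lower. Their median log2 difference was 0.21, against 0.09 over all genes. The calls were spread over the roles, with 3 of 8 elongation factors, 4 of 13 eIF3 subunits, 2 of 4 genes of the eIF2 group, 1 of 5 eIF2B subunits and 1 of 5 scanning, joining and release factors higher.

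The nucleotide exchange subunits of the eEF1 complex led at 34 d. For eEF1beta the ratio was 0.64, 0.39 and 0.48 in Mettl3 RNAi heads, against -0.15, 0.02 and -0.10 in control heads (log2 difference 0.47 ± 0.10 SE, adjusted p = 0.0012). For eEF1delta it was 0.54, 0.42 and 0.37 in Mettl3 RNAi heads, against -0.13, -0.11 and -0.16 in control heads (0.47 ± 0.10, adjusted p = 0.00069). Neither pair of groups overlapped. The ratio of eEF2 was -1.10, -1.18 and -1.22 in Mettl3 RNAi heads, against -1.74, -1.65 and -1.71 in control heads (0.42 ± 0.10, adjusted p = 0.0022), so that it rose while staying far below 0. Next came eIF2Bbeta, a subunit of the exchange factor (0.45 ± 0.13), eIF4B, a helicase cofactor (0.43 ± 0.11), and eIF1, which guards start codon choice (0.42 ± 0.11). The 2 genes that fell were the cap-binding protein eIF4E1 (-0.37 ± 0.11, adjusted p = 0.0094) and the subunit eIF3f1 (-0.30 ± 0.10, adjusted p = 0.022). Without replicate 2 of control heads at 34 d, 9 genes were called, all higher.

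At 5 d, 5 of 44 genes had a higher ratio in Mettl3 RNAi heads and 0 a lower one by edgeR, at backgrounds of 5.03% higher and 14.0% lower. The median was 0.16, against 0.06 over all genes. The 5 were eIF4H1 (0.48 ± 0.13), the loosely bound subunit eIF3j (0.45 ± 0.12), the scaffold eIF4G1 (0.38 ± 0.11), its paralog eIF4G2 (0.40 ± 0.11), and eIF4EHP, a cap-binding repressor (0.37 ± 0.11). In full, eIF4G2 was at 0.64, 0.73 and 0.68 in Mettl3 RNAi heads, against 0.29, 0.25 and 0.32 in control heads. These calls were fragile: 1 gene passed without replicate 2 of control heads and 3 without replicate 1 of Mettl3 RNAi heads. DESeq2 called 8 genes higher and 0 lower.

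Age changed the ratios of control heads downward under the scaling used here, and the split depended on that scaling. At 34 d, 3 of 44 genes had a higher ratio than at 5 d and 16 a lower one, while 5.84% of all genes were higher and 17.8% lower. With RLE scaling in place of TMM the median of all genes moved to 0.02, against -0.16 with TMM, and the calls became 6 higher and 4 lower. DESeq2 gave 6 higher and 5 lower, and no filter on low counts 4 higher and 6 lower. Of the genes named by the largest differences, eIF2Bbeta was at -0.81, -1.05 and -0.78 at 34 d, against -0.32, -0.02 and -0.14 at 5 d (-0.71 ± 0.12). The tRNA-delivering factor eIF2D was at -0.17, -0.24 and -0.15 at 34 d, against 0.48, 0.46 and 0.57 at 5 d (-0.67 ± 0.13), and eEF1beta fell by 0.64 ± 0.11. Further falls were those of eIF2Bepsilon (-0.54), eIF3g1 (-0.51) and eIF6 (-0.51), which keeps free large subunits apart from small ones. The 3 that rose were eEF1alpha1, at -0.36, -0.22 and -0.14 at 34 d, against -0.69, -0.74 and -0.72 at 5 d (0.49 ± 0.11), eIF4E1 (0.43 ± 0.10) and eIF4EHP (0.42 ± 0.10). In Mettl3 RNAi heads, edgeR called 0 of 45 genes with age (6 at an unadjusted p under 0.05, 1 by DESeq2, background 3.90%). The test of the difference between the genotypes in their change with age called 0 of 45 (16 at an unadjusted p under 0.05, 3 by DESeq2, background 1.04%), so the change with age was not shown to differ between Mettl3 RNAi and control heads. Without replicate 3 of Mettl3 RNAi heads at 34 d the age test there called 5, and without replicate 3 of control heads at 5 d the test of the difference called 4.

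With Aβ42 in neurons, the m6A ratios of heads moved in both directions, in a share of genes (29.5%) near that of all genes tested (24.4%). The ratio was higher in Aβ42 heads for 5 of 44 genes and lower for 8, at backgrounds of 9.54% higher and 14.8% lower, and the medians were -0.05 and, over all genes, -0.06. The balance of directions turned with the processing: the calls were 9 higher and 7 lower with RLE scaling, 7 and 3 with DESeq2, and 15 and 4 without the filter on low counts. The elongation factors eEF5 and eEF2 and the subunit eIF3l were lower under all 9 alternatives run for this comparison. For eEF5 the ratio was -1.16 and -1.02 in Aβ42 heads, against -0.69, -0.21 and -0.42 in mCD8-GFP heads (-0.76 ± 0.10, adjusted p = 2.6e-06). For eIF3l it was -1.59 and -1.42 in Aβ42 heads, against -1.27, -0.89 and -0.93 in mCD8-GFP heads (-0.59 ± 0.10, adjusted p = 4.1e-05), and for eEF2 it was -1.07 and -0.99 in Aβ42 heads, against -0.81, -0.58 and -0.68 in mCD8-GFP heads (-0.45 ± 0.09). Falls followed for eIF2Bbeta (-0.41 ± 0.11), eIF2gamma (-0.33 ± 0.09) and eIF3e (-0.33 ± 0.08). Among the genes called higher, eIF2beta had the largest difference, at 1.61 and 1.57 in Aβ42 heads, against 1.19, 1.05 and 1.01 in mCD8-GFP heads (0.39 ± 0.09, adjusted p = 0.00091). The structural subunit eEF1gamma (0.34 ± 0.09), eIF4EHP (0.32 ± 0.09), eIF3a (0.29 ± 0.09) and eIF4H1 (0.25 ± 0.09) also rose. The count leaned on single pairs, at 4 without Aβ42 replicate 1, which leaves 1 Aβ42 pair assumed to vary like the controls, and at 23 without mCD8-GFP replicate 1.

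With Aβ42, the RNA levels of most eIF3 subunits and of all genes of the eIF2 group rose in heads and in brains, while the cap-binding and helicase group did not rise with them. In heads 25 of 43 genes rose and 3 fell in Aβ42 flies, at backgrounds of 18.5% and 17.5% of all genes, with a median log2 fold change of 0.19, against 0.01 over all genes. In brains 24 of 44 rose and 3 fell, at backgrounds of 16.0% and 15.0%, with a median of 0.34, against 0.02 over all genes. Without eIF4E3, which was tested in brains only because of its level in the Aβ42 libraries, 23 of 43 rose. The 21 genes that rose in both were 84.0% of those that rose in heads and 87.5% of those that rose in brains, and 0 fell in both. Of the 43 genes tested in both tissues, 40 had the same sign. The heads and brains are separate libraries with separate controls.

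The rises were not spread evenly over the roles. Of the eIF3 subunits, 12 of 13 tested rose in heads and 12 of 13 in brains, and all 4 genes of the eIF2 group rose in both. Of the eIF2B subunits 4 of 5 rose in heads and 3 of 5 in brains. The cap-binding and helicase group stood apart, with 0 of 8 higher and 3 lower in heads, and with 0 of 8 higher and 0 lower in brains once eIF4E3, the 1 rise of 9, is set aside.

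**Figure D2:**
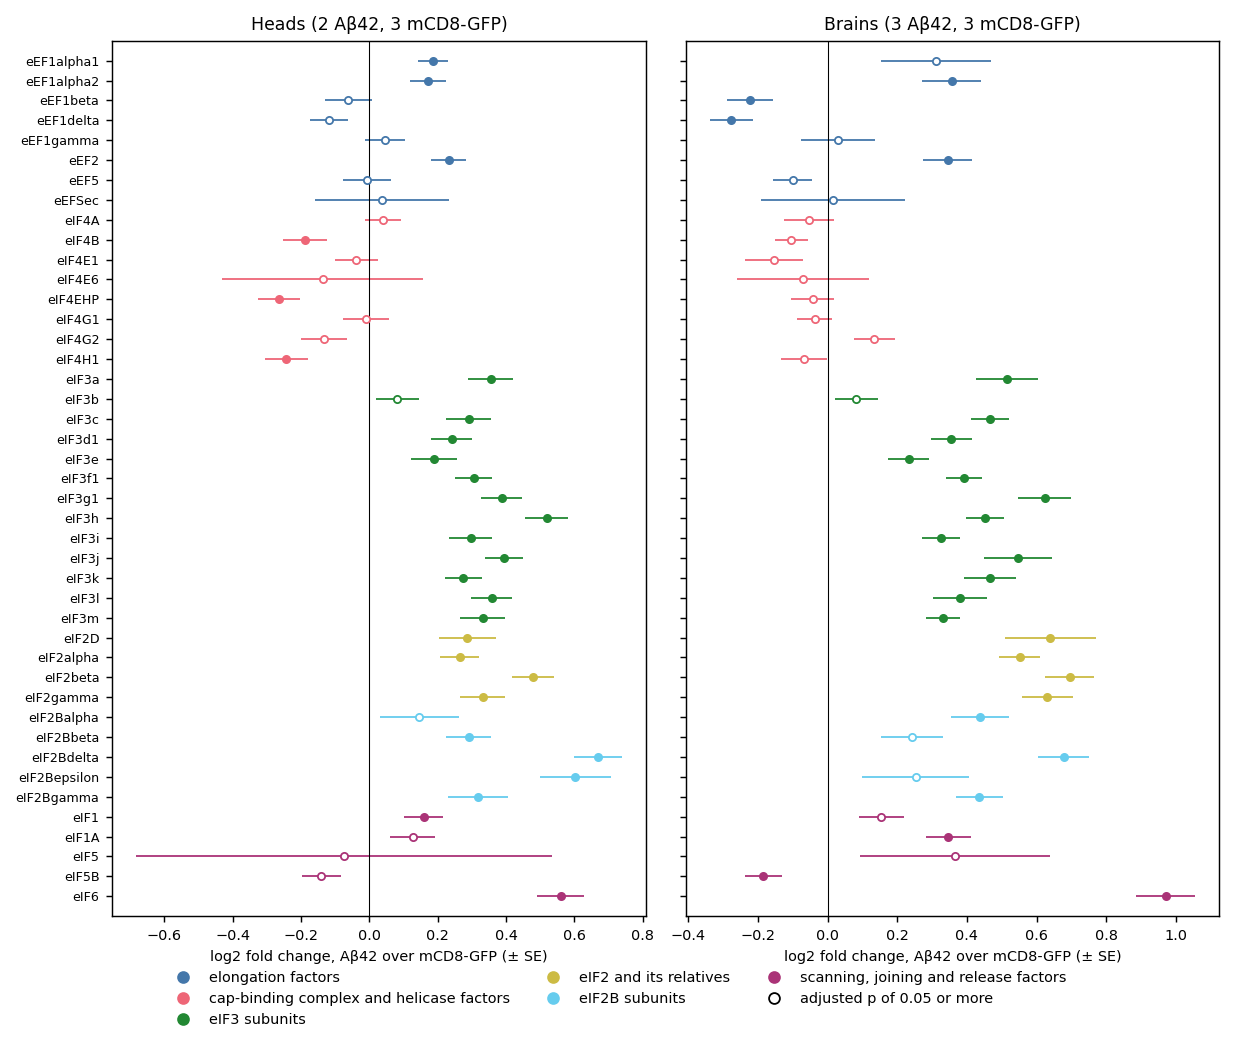
Log2 fold change of RNA level, Aβ42 over mCD8-GFP, ± SE from the fit, for the 43 genes tested in both tissues, in heads (left, 2 Aβ42 and 3 mCD8-GFP libraries) and brains (right, 3 and 3), coloured by role, with open points where the adjusted p was 0.05 or more. Filled points right of 0 are 12 of 13 eIF3 subunits and all 4 genes of the eIF2 group in each tissue, while the cap-binding group lies between -0.26 and 0.13.

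Among single genes, eIF6 was at 40.0 and 38.4 CPM in Aβ42 heads, against 28.2, 28.2 and 27.9 CPM in mCD8-GFP heads (log2 fold change 0.56 ± 0.07, adjusted p = 3.8e-05). In brains it was at 34.7, 29.8 and 31.6 CPM in Aβ42 flies, against 16.2, 16.5 and 15.6 CPM in mCD8-GFP flies (0.97 ± 0.08, adjusted p = 0.00017), the largest brain change apart from that of eIF4E3. The regulatory subunit eIF2Bdelta was at 37.3 and 36.4 CPM in Aβ42 heads, against 24.8, 24.7 and 24.0 CPM in mCD8-GFP heads (0.67 ± 0.07), and at 38.8, 37.3 and 34.2 CPM in Aβ42 brains, against 23.1, 22.2 and 22.5 CPM in mCD8-GFP brains (0.68 ± 0.07). In both tissues the groups of eIF6 and of eIF2Bdelta were well apart. The catalytic subunit eIF2Bepsilon rose in heads (0.60 ± 0.10). In brains its groups overlapped and it was not called (0.25 ± 0.15, adjusted p = 0.25).

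For the subunits of eIF2, eIF2beta was at 132 and 144 CPM in Aβ42 heads, against 108, 107 and 97.6 CPM in mCD8-GFP heads (0.48 ± 0.06), and at 83.1, 92.0 and 85.2 CPM in Aβ42 brains, against 58.0, 50.2 and 50.1 CPM in mCD8-GFP brains (0.70 ± 0.07). The GTP-binding subunit eIF2gamma rose by 0.33 ± 0.07 in heads and 0.63 ± 0.07 in brains, and eIF2alpha, the subunit phosphorylated under stress, by 0.26 ± 0.06 and 0.55 ± 0.06. The factor eIF2D rose by 0.29 ± 0.08 in heads and 0.64 ± 0.13 in brains. Of the eIF3 subunits, eIF3h was at 282 and 299 CPM in Aβ42 heads, against 210, 216 and 216 CPM in mCD8-GFP heads (0.52 ± 0.06), and eIF3j rose by 0.39 ± 0.06.

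The genes that fell differed between the tissues. In heads they were eIF4EHP (-0.26 ± 0.06), eIF4H1 (-0.24 ± 0.06) and eIF4B, which was at 261 and 268 CPM in Aβ42 heads, against 316, 317 and 322 CPM in mCD8-GFP heads (-0.19 ± 0.06). In brains they were eEF1delta (-0.28 ± 0.06), eEF1beta (-0.22 ± 0.07) and eIF5B (-0.19 ± 0.05). The cap-binding protein eIF4E1 was at 228 and 240 CPM in Aβ42 heads, against 253, 253 and 254 CPM in mCD8-GFP heads, and passed the test in neither tissue. In brains eIF4E3 was at 0.673, 0.686 and 1.22 CPM in Aβ42 flies, against 0, 0.213 and 0.0488 CPM in mCD8-GFP flies. Levels of cell markers moved with Aβ42 too. All 5 neuronal markers, 5 of 6 glial, 3 of 4 photoreceptor and 2 of 4 hemocyte markers fell in heads, and 1 of 5 neuronal, 4 of 6 glial, 3 of 4 photoreceptor and 3 of 4 hemocyte markers fell in brains. Neuronal markers summed to 2717 to 2973 CPM in Aβ42 heads, against 3542 to 3791 CPM in mCD8-GFP heads, with none at 0. Photoreceptor markers summed to 22150 to 22330 CPM in Aβ42 heads, against 32570 to 33490 CPM in mCD8-GFP heads, and to 16610 to 20680 CPM in Aβ42 brains, against 29560 to 32100 CPM in mCD8-GFP brains. Of the fat body markers in heads 1 rose and 1 fell, and their sum was 826.6 to 878.7 CPM in Aβ42 heads, against 2412 to 5916 CPM in mCD8-GFP heads. Of the muscle markers, 2 of 3 tested fell in heads and 0 of 2 tested were called in brains. Their sum was 1330 to 1484 CPM in Aβ42 heads, against 2061 to 2214 CPM in mCD8-GFP heads. The part of these markers in the changes of the translation factors was not tested.

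In control heads, age moved the levels of 20 of 44 genes, a smaller share (45.5%) than that of all genes tested (51.5%). At 34 d 13 were higher and 7 lower, at backgrounds of 23.5% higher and 27.9% lower. The median was 0.09, against -0.05 over all genes. The elongation factor eEF1alpha1 was at 5089, 5451 and 5870 CPM at 34 d, against 3505, 2168 and 2465 CPM at 5 d (0.89 ± 0.20, adjusted p = 0.0086), and eEF2 was at 2770, 2784 and 3108 CPM at 34 d, against 1202, 1501 and 1763 CPM at 5 d (0.83 ± 0.17, adjusted p = 0.0057). The partner eEF1delta went the other way, at 133, 126 and 132 CPM at 34 d, against 215, 182 and 193 CPM at 5 d (-0.72 ± 0.09), so that elongation factors split into 3 higher and 3 lower of 8.

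Of the 13 rises 5 were in the cap-binding group, 1 of them eIF4E3, which passed the minimum only through the 34 d libraries, and without it the group had 4 of 8 higher and 1 lower. The scaffold paralog eIF4G2, known for its part in spermatogenesis, was at 64.1, 68.4 and 72.5 CPM at 34 d, against 43.0, 43.6 and 43.6 CPM at 5 d (0.53 ± 0.07). The sparse cap-binding paralogs eIF4E3 (2.88 ± 0.41) and eIF4E6 (1.45 ± 0.37) had the largest fold changes, but at 1.37, 0.995 and 1.11 CPM for eIF4E3 at 34 d, against 0.257, 0.0885 and 0.0878 CPM at 5 d. The main cap-binding protein eIF4E1 fell, with 168, 179 and 169 CPM at 34 d, against 258, 209 and 211 CPM at 5 d (-0.52 ± 0.10). The factor eIF2D rose by 0.65 ± 0.07. Other falls were those of eEFSec, which serves selenocysteine tRNA (-0.78 ± 0.19), eEF5 (-0.44 ± 0.09), eIF2Bbeta (-0.39 ± 0.10) and eIF3g1 (-0.35 ± 0.09). At 5 d, control replicate 1 lay above the other 2 for eEF1alpha1 and eIF4E1 and below them for eEF2. Without it 31 genes were called, and 13 were called without replicate 2 or without replicate 3 at 34 d. Fat body markers summed to 1081 to 1134 CPM at 34 d, against 4734 to 6117 CPM at 5 d, and muscle markers to 1245 to 1302 CPM at 34 d, against 2629 to 5550 CPM at 5 d, with 3 of 4 in each list called lower and none at 0. Their part in the age differences was not tested.

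Mettl3 RNAi changed the levels at 34 d and left no call at 5 d. The lower level of Mettl3 itself did not pass the test at 5 d. At 5 d, edgeR called 0 of 43 genes (2 at an unadjusted p under 0.05, 0 by DESeq2, background 0.173%). At 34 d, 5 of 43 genes were higher in Mettl3 RNAi heads and 14 lower, at backgrounds of 21.7% higher and 19.1% lower, with a median of -0.08, against -0.01 over all genes. The share called (44.2%) was near that of all genes tested (40.8%). Of the eIF3 subunits 6 of 13 fell and 0 rose, and of the elongation factors 3 of 8 fell and 1 rose. Whether the effect of knockdown differed between the ages was not tested.

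The subunit eEF1beta was at 364, 377 and 397 CPM in Mettl3 RNAi heads at 34 d, against 540, 489 and 522 CPM in control heads (-0.44 ± 0.05, adjusted p = 1.9e-06). Its partner eEF1delta was at 107, 106 and 105 CPM in Mettl3 RNAi heads, against 133, 126 and 132 CPM in control heads (-0.29 ± 0.04). Both are genes whose m6A ratio rose in the same heads, and the input libraries enter both measures. The subunit eIF3g1 (-0.31 ± 0.04), eEF5 (-0.30 ± 0.05), eIF1 (-0.29 ± 0.04) and eIF6 (-0.27 ± 0.06) fell by similar amounts. The rises were led by eIF4G2, at 108, 93.1 and 88.2 CPM in Mettl3 RNAi heads, against 64.1, 68.4 and 72.5 CPM in control heads (0.50 ± 0.07), and by eIF4EHP, at 116, 111 and 105 CPM in Mettl3 RNAi heads, against 80.2, 87.7 and 88.5 CPM in control heads (0.38 ± 0.05). Syx1A, a synaptic gene whose exons overlap those of eIF4EHP, rose as well (0.52), as did all 5 neuronal markers, which summed to 3249 to 3342 CPM in Mettl3 RNAi heads, against 2542 to 2772 CPM in control heads. Their part was not tested. The rises of eEF1alpha2 (0.14 ± 0.04), eIF4H1 (0.14 ± 0.04) and eIF5B (0.12 ± 0.04) were slight.

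**Figure D3:**
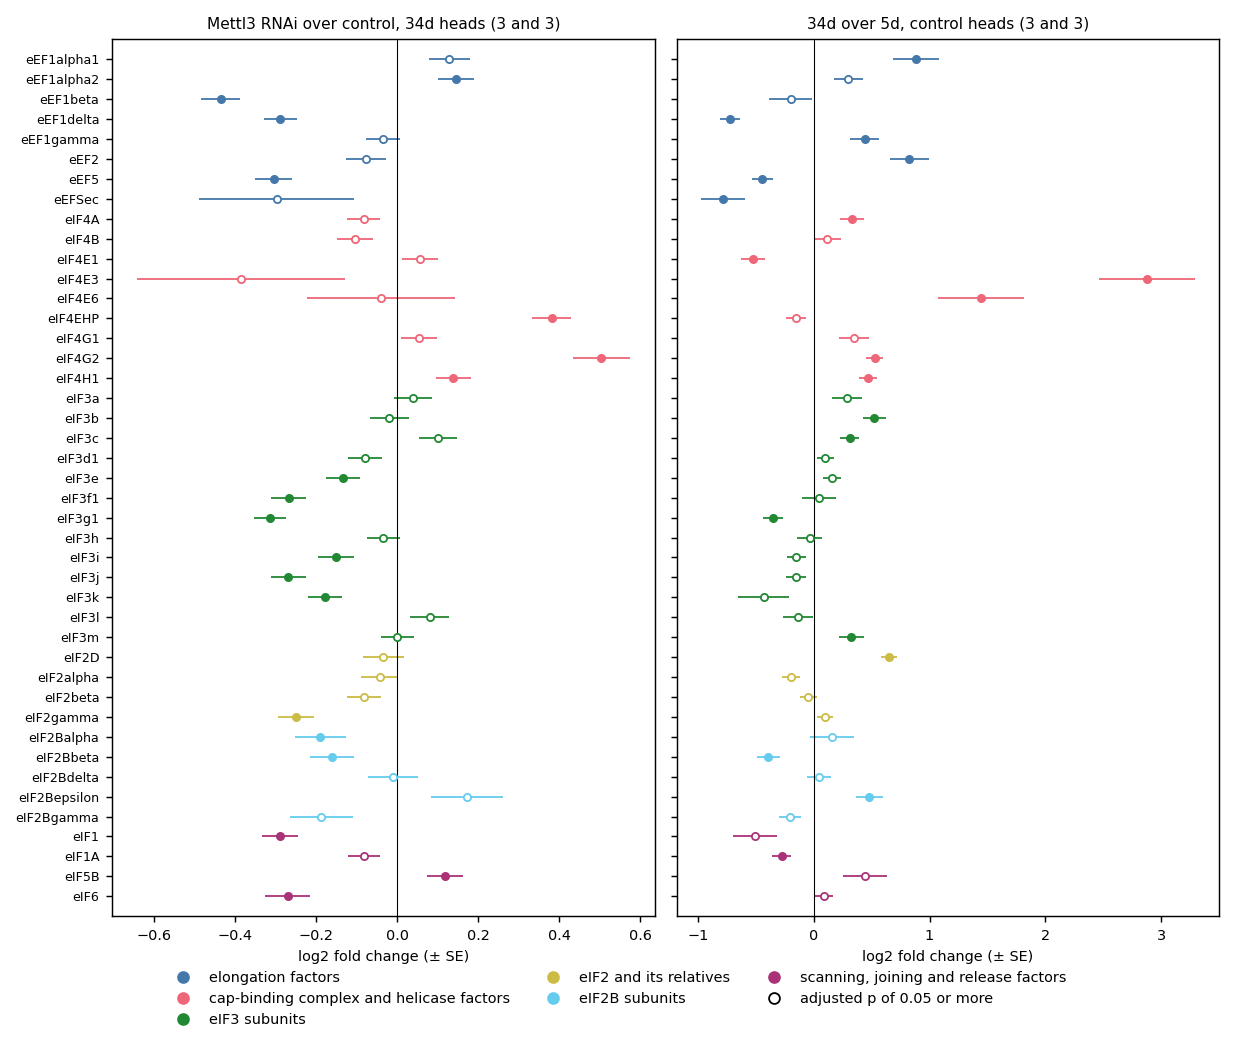
Log2 fold change of RNA level ± SE for the genes tested in both comparisons, for Mettl3 RNAi over control in heads at 34 d (left, 3 and 3 libraries) and for 34 d over 5 d in control heads (right, 3 and 3), coloured by role, with open points where the adjusted p was 0.05 or more. Knockdown effects lie between -0.44 and 0.50. Age effects reach 2.88 for the sparse eIF4E3, which passed the minimum for testing only through the 34 d libraries. The control heads at 34 d enter both panels, so the panels are not independent.

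In sorted brain cells the paralogs eEF1alpha1 and eEF1alpha2 set glia apart. At 5 d, 7 of 43 genes were higher in repoGFP+ cells and 1 lower, at backgrounds of 13.3% higher and 4.77% lower, with a median of 0.22, against -0.02 over all genes. The level of eEF1alpha1 was 838, 1044 and 1045 CPM in repoGFP+ cells, against 138, 109 and 120 CPM in repoGFP- cells (2.99 ± 0.15, adjusted p = 3.3e-05). The paralog eEF1alpha2 (arm 3R, 31738468 to 31743306, plus strand, dm6) was at 698, 598 and 590 CPM in repoGFP+ cells, against 1146, 1165 and 1087 CPM in repoGFP- cells (-0.85 ± 0.11, adjusted p = 0.0019). Per kilobase, eEF1alpha2 made up 37.6 ± 5.22% of the pair in repoGFP+ cells, against 89.6 ± 1.16% in repoGFP- cells (SD, n = 3 each). In elavGFP+ cells at 5 d it made up 90.9 ± 0.721% (n = 3), while in whole control heads at 5 d its share was 21.4 ± 1.88% and in mCD8-GFP brains 24.5 ± 2.14%. In the TRAP-IP of control brains at 5 d it was 11.9 ± 4.35% with elav (n = 3) and 13.6 ± 3.96% with repo (n = 4). The brain share lay below those of both repo-sorted fractions, which a mixture of these fractions would not give. The sorted shares thus cannot be read as shares in tissue, and the reason was not tested.

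The eEF1 subunits eEF1beta and eEF1gamma and the factor eEF5 were also higher in repoGFP+ cells at 5 d, while eEF1delta did not pass the test (0.22 ± 0.26, adjusted p = 0.64). The subunit eEF1beta was at 138, 138 and 111 CPM in repoGFP+ cells, against 55.1, 47.2 and 61.6 CPM in repoGFP- cells (1.24 ± 0.18), and eEF1gamma was at 115, 145 and 132 CPM in repoGFP+ cells, against 70.7, 63.2 and 61.7 CPM in repoGFP- cells (1.00 ± 0.16). The factor eEF5 was at 64.5, 82.0 and 54.5 CPM in repoGFP+ cells, against 33.6, 30.9 and 26.7 CPM in repoGFP- cells (1.14 ± 0.23). The cap-binding paralog eIF4E6 was at 2.28, 6.64 and 7.87 CPM in repoGFP+ cells and at 0 counts in all 3 repoGFP- libraries, so that even its lowest repoGFP+ library was at least 10.0-fold higher than the highest floor of 3 counts per repoGFP- library. It passed the minimum only through the repoGFP+ cells, and without it 6 of 42 genes were higher. The subunit eIF3k (0.88 ± 0.23) and the cofactor eIF4B (0.53 ± 0.15) were called, but each lost its call when any 1 of the 6 libraries was left out. Without replicate 2 or replicate 3 of repoGFP- cells, 5 genes were called.

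At 34 d, 1 of 43 genes was called between repoGFP+ and repoGFP- cells, at a background of 6.69%. This was eEF1alpha1, at 463, 510 and 698 CPM in repoGFP+ cells, against 162, 149 and 186 CPM in repoGFP- cells (1.74 ± 0.18, adjusted p = 0.0018). The paralog eEF1alpha2 was at 689, 844 and 868 CPM in repoGFP+ cells at 34 d, against 1128, 1076 and 1083 CPM in repoGFP- cells, and did not pass. The glial marker sum was itself 5452 to 9772 CPM in repoGFP+ cells at 34 d, against 18200 to 25120 CPM at 5 d, and its part was not tested. The test of the difference between the ages called 0 of 43 genes by edgeR (6 at an unadjusted p under 0.05, 1 by DESeq2, background 0.0305%). Within repoGFP+ cells, 34 d against 5 d called 0 of 43 (3 at an unadjusted p under 0.05, 1 by DESeq2, background 0.120%).

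In elavGFP+ cells, eEF1alpha1 was the 1 gene of 45 called with age, at a background of 4.35%. It was at 202, 164, 239 and 197 CPM at 34 d, against 86.5, 90.7 and 99.6 CPM at 5 d (1.12 ± 0.14, adjusted p = 0.0024), with no overlap, and the call held under all 12 alternatives run. The glial marker sum was 2493 to 3468 CPM at 34 d, against 5511 to 7197 CPM at 5 d, and its part was not tested. The paralog eEF1alpha2 was at 952, 882, 1015 and 1149 CPM at 34 d, against 875, 935 and 1185 CPM at 5 d, where the groups overlapped. Mettl3 RNAi at 34 d called 0 of 44 genes in elavGFP+ cells (3 at an unadjusted p under 0.05, background 0.0366%) and 0 of 43 in repoGFP+ cells (0 at an unadjusted p under 0.05, background 0%), by edgeR and by DESeq2.

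**Figure D4:**
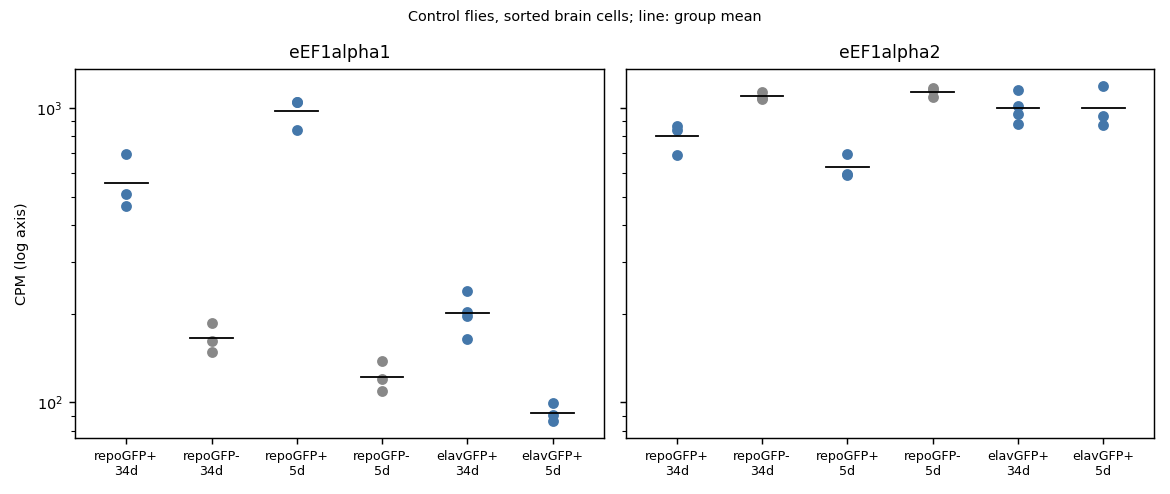
Level of eEF1alpha1 (left) and eEF1alpha2 (right) in CPM on a log axis in each library of sorted brain cells from control flies, with the group mean as a line. In repoGFP+ cells eEF1alpha1 lies at 463 to 1045 CPM, above all repoGFP- and elavGFP+ libraries, while eEF1alpha2 lies at 590 to 868 CPM, below all repoGFP- libraries. The elav and repo sorts were scaled separately.

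The TRAP ratio compares ribosome-bound RNA of the driver's cells with RNA of the whole brain lysate, so it carries cell type as well as ribosome association. In the repo IP of control brains at 5 d, all 6 glial markers were higher than in input, but so were 4 of 5 neuronal markers. With repo, 13 of 43 genes were higher in the TRAP-IP than in input and 11 lower (4 pairs, backgrounds 28.8% and 27.6%), with a median of 0.02, against -0.03 over all genes. The share called (55.8%) was near that of all genes tested (56.4%). The cap-binding group had 5 of 8 higher and 2 lower, or 4 of 7 higher without eIF4E6, which passed the minimum only through the IP libraries, while 5 of 8 elongation factors were lower.

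The cofactor eIF4H1 had TRAP ratios of 1.57, 0.96, 1.46 and 1.53 with repo (1.40 ± 0.13, adjusted p = 6.1e-08), eIF4G2 of 1.07, 1.35, 1.47 and 1.06 (1.26 ± 0.13), eIF4EHP of 1.56, 1.01, 1.05 and 0.99 (1.17 ± 0.13) and eIF4G1 of 1.00, 0.64, 1.02 and 1.00 (0.94 ± 0.12). All 4 replicates of these genes were above 0. The sparse eIF4E6 (2.84 ± 0.64) had 16 to 38 counts in the IP libraries, against 0 to 7 in input, and the ratio of eIF5 (0.85 ± 0.29) rests on a gene most of whose exons are shared with CG46312. Among the lower genes, eEF1alpha2 was at -1.06, -1.06, -0.99 and -1.11 (-1.04 ± 0.11, adjusted p = 2.9e-07), a narrow range, and eEFSec at -1.39 ± 0.50. The subunits eIF2Bepsilon (-0.72 ± 0.20) and eIF2Bgamma (-0.59 ± 0.21), eIF4B (-0.55 ± 0.12) and eEF1delta (-0.49 ± 0.14) followed. The eIF3 subunits did not move as one, with 6 of 13 higher and 2 lower.

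With elav, the TRAP ratio of control brains at 5 d was measured in 3 pairs, since 1 input had no IP partner and dropped out. Glial markers were lower in the IP for 3 of 6, and 1 of 5 neuronal markers was higher. Of 42 genes 2 were higher and 5 lower, at backgrounds of 5.46% higher and 5.67% lower. The subunit eIF3l was at -1.91, -1.78 and -1.13 with elav (-1.58 ± 0.24, adjusted p = 0.0033), against -0.11, -0.17, -0.12 and -0.21 with repo, a difference between drivers that was not tested. The helicase eIF4A was at -1.05, -1.33 and -1.19 (-1.18 ± 0.20), and eEF1beta (-0.83 ± 0.19), eIF3g1 (-0.79 ± 0.23) and eEF1alpha2 (-0.71 ± 0.20) were also lower. The subunit eIF3a was at 0.77, 1.36 and 1.12 (1.10 ± 0.20) and eIF4H1 at 0.82, 0.59 and 0.76 (0.73 ± 0.19). Each pair mattered, with 23 genes called without replicate 1, whose IP was the smallest library of all, 1 without replicate 2 and 2 without replicate 3. The call of eIF3l held in each.

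**Figure D5:**
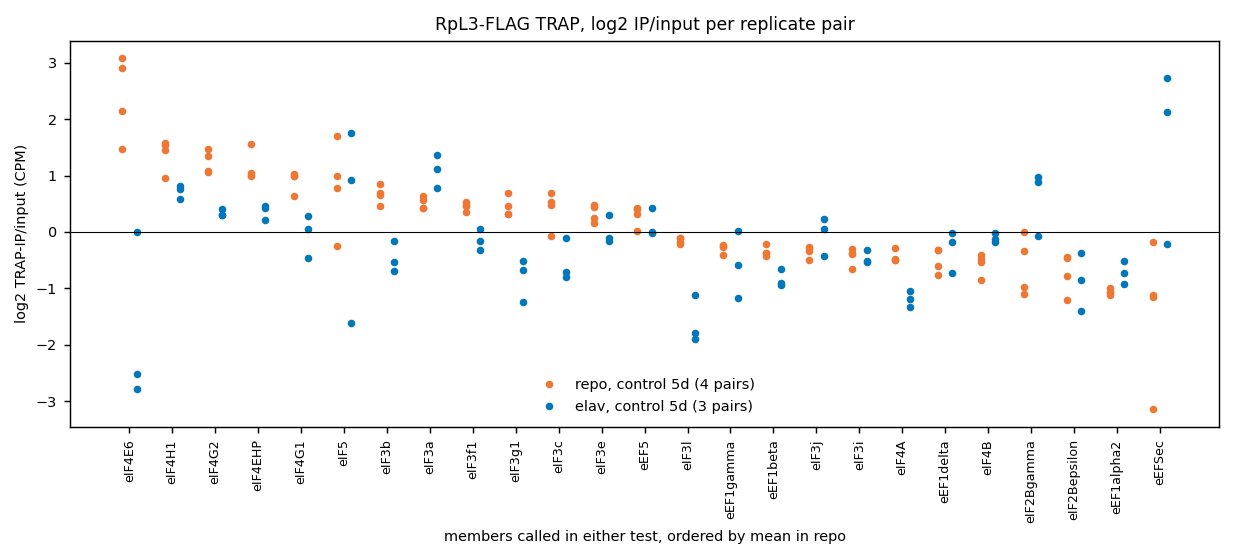
Log2 TRAP-IP/input in each replicate pair of control brains at 5 d with repo (orange, 4 pairs) and elav (blue, 3 pairs), for the genes called in either test, ordered by the repo mean. eIF4H1, eIF4G2, eIF4EHP and eIF4G1 lie above 0 in every repo pair, and eEF1alpha2 lies below 0 with both drivers.

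Age and Mettl3 RNAi left few calls in the TRAP ratio. Control brains at 34 d against 5 d gave 0 of 43 calls with elav (6 at an unadjusted p under 0.05, 1 by DESeq2, background 1.25%) and 0 of 43 with repo (8 at an unadjusted p under 0.05, 3 by DESeq2, background 3.91%), both by edgeR. At 5 d, knockdown in elav cells called 1 of 43 genes, eEF1alpha1, at a background of 1.54%. Its TRAP ratio was -0.54, -1.42, -1.24 and -1.45 with Mettl3 RNAi, against 0.51, -0.20 and 0.22 in control (-1.33 ± 0.26, adjusted p = 0.020), with no overlap. The call was lost in 7 of 12 alternatives, over which the adjusted p was 1.9e-05 to 0.21 and the log2 difference -1.53 to -1.18. It was lost without replicate 2 or 3 of control and without replicate 2, 3 or 4 of Mettl3 RNAi, while 3 genes were called without replicate 1 of control. In repo cells knockdown called 0 of 43 (6 at an unadjusted p under 0.05, 1 by DESeq2, background 0.654%), with 1 Mettl3 RNAi input left out for want of an IP. There eEF1alpha1 was at -0.04, 0.25 and 0.50 with Mettl3 RNAi, against -0.16, -0.16, 0.06 and 0.76 in control.

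The effect of knockdown on the TRAP ratio at 5 d was tested between the drivers, elav minus repo, and differed for 2 of 43 genes (background 3.60%). For eEF1alpha1 the difference was -1.34 ± 0.33 (adjusted p = 0.021). For eIF4EHP, whose ratio with elav was 0.44, 1.00, 1.18 and 1.27 with Mettl3 RNAi, against 0.22, 0.46 and 0.42 in control, it was 1.17 ± 0.30 (adjusted p = 0.025). Over 19 alternatives the adjusted p was 0.00010 to 0.27 for eEF1alpha1, lost in 8, and 0.0058 to 0.12 for eIF4EHP, lost in 7. Depending on the pair left out, 0 to 4 genes were called. For the neuronal markers, 4 of 5 had a higher difference in the same test, and their part was not tested. At 34 d, knockdown called 0 of 43 genes with elav (3 at an unadjusted p under 0.05), 0 with repo (2) and 0 for the difference (1), by edgeR and by DESeq2, at a background of 0% in each.

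Outside the eIF and eEF genes, a list of 24 genes of translation and its control was described too, from kinases of eIF2alpha and proteins that bind eIF4E to release and recycling factors and a ribosomal protein. In Aβ42 heads 8 of 23 tested rose and 1 fell, beside 18.5% and 17.5% of all genes, and in Aβ42 brains 7 of 23 rose and 1 fell, beside 16.0% and 15.0%. The eIF2alpha kinase PEK rose by 0.63 ± 0.06 in heads and 0.91 ± 0.05 in brains, the ribosome recycling factor pix by 0.48 ± 0.07 and 0.71 ± 0.06, and the release factor eRF3 by 0.38 ± 0.05 and 0.64 ± 0.06. The eIF4E-binding repressor Thor rose in heads (0.48 ± 0.08). With Mettl3 RNAi at 34 d, 13 of 23 rose in heads and 2 fell, beside 21.7% and 19.1% of all genes. Among them Thor rose by 0.56 ± 0.04 and the eIF4E kinase Lk6 by 0.47 ± 0.08. In the m6A ratio, 4 of 23 were higher with knockdown at 5 d and 2 lower, beside 5.03% and 14.0% of all genes. At 34 d 3 were higher and 4 lower, beside 12.6% and 19.7%. Among the lower genes, 2 fell far more than any translation factor called. They were PPP1R15, an eIF2alpha phosphatase subunit (-1.41 ± 0.10 at 5 d and -1.49 ± 0.11 at 34 d), and the ribosomal protein kinase S6k (-0.87 ± 0.11 at 5 d), which also fell at 34 d.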

How the data were processed

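The authors deposited 1 table of raw read counts per gene for all 140 libraries. Per the labels and methods, reads were trimmed with Trim Galore, aligned to dm6 with STAR 2.7.3a and counted per gene without normalization, and the authors' own tests used DESeq2. The number of per-sample columns that matched no label was 0. Members and gene lists were chosen with earlier results of these data known.

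Counts were scaled by TMM (edgeR 4.0.16, R 4.3.3), filtered with filterByExpr over all genes, and tested with edgeR's robust quasi-likelihood test, with Benjamini-Hochberg adjustment over all genes tested and a call at an adjusted p under 0.05. Log2 fold changes carry standard errors from that fit. Ratios were tested as the IP and input interaction with each replicate's IP and input kept as a pair, which come from 1 RNA sample or lysate. The script was tested on simulated data with known changes. Per comparison, the text names up to 6 called genes with the largest positive and 6 with the largest negative log2 fold change, and listed paralogs. Levels per kilobase used exon lengths of the BDGP6 annotation, and per-library log2 ratios a prior count of 2. The labels call the replicates biological without naming what separates them, so p-values measure the spread between these samples. Intervals of shares were not needed, and floors of 3 counts cover counting error only. Total counts per library limit precision most in TRAP. Alternatives were DESeq2, RLE scaling, no filter on low counts, the fit with or without a replicate block, RUVr with 1 factor for sorted cells, the TRAP pairs numbered 1 to 3, and leaving out each replicate. Same-numbered samples of different groups were not treated as pairs. The repoGFP+ and repoGFP- libraries of 1 number may come from the same brains, which the labels do not say. No sequences are printed, since no sequence tables were used here.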

Additional observations from a re-analysis of the deposited data

Results flagged for a closer look

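Of 16 groups of 4 or more TRAP ratios or levels of named genes checked, 2 held a value far from the rest, where chance sets apart about 1 group in 20. With repo in control brains at 5 d, replicate 1 of eIF4EHP had a log2 TRAP-IP/input of 1.56, above the other 3 replicates, and replicate 2 of eIF4G1 had one of 0.64, below the other 3. The effect of Mettl3 RNAi on the TRAP ratio at 5 d differed between elav and repo for eEF1alpha1 (-1.34) and for eIF4EHP (1.17), elav minus repo, by edgeR's test of the difference.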

How the results depend on the processing

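Named genes kept their direction in all 1027 pairs of gene and alternative, and 170 of these lost the call. These genes were picked by their calls and effect sizes in the main fit, and the alternatives reuse its counts. A kept direction is therefore a weak check. Counts of calls moved as follows. With DESeq2, main count first, the m6A counts were 5 and 8 (knockdown, 5 d), 19 and 11 (age, control), 0 and 1 (age, Mettl3 RNAi) and 0 and 3 (difference in the change with age). For sorted cells they were 8 and 13 (repoGFP+ against repoGFP-, 5 d), 1 and 6 (34 d), 0 and 1 (change with age of that difference), 1 and 4 (elavGFP+ with age) and 0 and 1 (repoGFP+ with age). For TRAP they were 0 and 1 (elav with age), 0 and 3 (repo with age), 1 and 3 (knockdown, elav 5 d), 0 and 1 (knockdown, repo 5 d) and 2 and 4 (elav minus repo, 5 d). RLE scaling gave 10 for the m6A age test in control, where the all-gene median moved by more than 0.1, and 1 for the difference in the change with age. Without the filter on low counts the m6A counts were 8 (knockdown, 5 d), 10 (age, control), 6 (age, Mettl3 RNAi) and 1 (difference), and the TRAP counts 2 (elav with age), 2 (repo with age), 2 (knockdown, elav 5 d) and 1 (knockdown, repo 5 d). Without the filter the Aβ42 m6A calls were 15 higher and 4 lower. RUVr gave 1 for the change with age of repoGFP+ against repoGFP- and 1 for repoGFP+ with age. TRAP replicates numbered 1 to 3 alone gave 2 (repo with age), 0 (knockdown, elav 5 d), 1 (elav minus repo, 5 d) and 1 (knockdown, elav 34 d).

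Without the replicate block that ties each IP to its input, the m6A counts were 1 (knockdown, 5 d), 0 (age, control) and 3 (Aβ42), and the TRAP counts 2 (elav IP against input), 0 (knockdown, elav 5 d) and 0 (elav minus repo, 5 d). For levels the same-numbered samples were not paired in the main fits. For repoGFP+ against repoGFP- cells at 5 d, deviations from the group means correlated at r = 0.026 to 0.121 for the same number. For other numbers r was -0.14 to 0.084. A replicate block gave 5 genes for that comparison and stayed within 1.5 times of the main count for the other level comparisons.

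Leaving out 1 replicate gave 1 to 5 (m6A knockdown, 5 d), 9 to 17 (34 d), 0 to 5 (age, Mettl3 RNAi), 0 to 4 (difference in the change with age) and 4 to 23 (Aβ42). It gave 13 to 31 for head levels with age. For sorted cells it gave 5 to 7 (repoGFP+ against repoGFP-, 5 d), 1 to 2 (34 d), 0 to 1 (its change with age), 1 to 2 (elavGFP+ with age) and 0 to 1 (repoGFP+ with age). For TRAP it gave 1 to 23 (elav IP against input), 0 to 2 (elav with age), 0 to 1 (repo with age), 0 to 3 (knockdown, elav 5 d), 0 to 1 (knockdown, repo 5 d), 0 to 4 (elav minus repo, 5 d) and 0 to 2 (knockdown, elav 34 d). The cause of these moves was not tested.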
